A study of Homo sapiens with 2 samples.

Results

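The genes of the epithelial-mesenchymal transition were examined for binding of RUNX2 and MTA1 in MDA-MB-231 cells. The 10 genes were SNAI1, SNAI2, ZEB1, ZEB2, TWIST1 and TWIST2, which encode transcription factors that drive the transition, VIM, CDH2 and FN1, which mark the mesenchymal state, and CDH1, which marks the epithelial state. They were picked by name from 20037 protein-coding genes. No measured value entered the rule, but earlier results of these data were known when the genes were chosen. For each gene, all peaks that touched its RefSeq span or the 50 kb on either side were collected, and this stretch is called its window.

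MDA-MB-231 is an established triple-negative breast cancer line, and the labels give no treatment or genetic change. The cells were grown in DMEM with fetal bovine serum and profiled by CUT&Tag, a method in which DNA next to an antibody is cut and tagged by a tethered transposase and then sequenced. The question asked was where the transcription factor RUNX2 and MTA1, a subunit of the NuRD remodelling and deacetylase complex, sit on the genome. Each antibody had 1 library and is known here only from its called peaks, so no value has a replicate, no test was possible, and the number of reads is unknown.

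In the transition, epithelial cells lose their junctions and polarity and take on a motile, mesenchymal form. Factors of the SNAI, ZEB and TWIST families repress CDH1, whose product E-cadherin joins neighbouring epithelial cells, while N-cadherin, vimentin and fibronectin rise. MDA-MB-231 is widely used as a line with mesenchymal features. RUNX2 belongs to the runt-domain factors, which bind the letters TGTGGT or TGCGGT, and SNAI and ZEB factors bind the E-box CACCTG.

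On chromosomes 1 to 22, X and Y there were 61700 listed peaks for RUNX2 and 42683 for MTA1. Scores ran from 3.0 to 108 with a median of 6.70 in the RUNX2 list and from 3.01 to 98.7 with a median of 7.58 in the MTA1 list. The scale of the score is not stated, so each peak is also given its rank, the percentile of its score within its own list, where the highest score is near 100. Positions are printed as listed, except that 1 was added to each start so that bases are counted from 1. The submitters' processing notes name hg19, but the peaks fit gene starts of GRCh38: 52.1% of 15843 protein-coding genes with a given start had a RUNX2 peak within 1 kb of it, against 8.75% when the starts were moved by 100 kb, and for MTA1 the shares were 53.9% and 6.69%.

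The starts of VIM, FN1 and ZEB1 carried peaks of both lists, so their RefSeq promoter sequences are shown first, each from 250 bases before to 50 bases after the start, read in the direction of the gene on GRCh38.p14. The first start of CDH2 is shown beside them as a start with no peak of either list nearby. Capitals mark matches on either strand to the runt motif TGTGGT, to its variant form TGCGGT or to the E-box CACCTG, and the sequences of FN1, the second start of ZEB1 and CDH2 held no match. The promoters lie at chr10:17227991-17228290 (plus strand, VIM), chr2:215436019-215436318 (minus strand, FN1), chr10:31318568-31318867 (plus strand, the second start of ZEB1), chr10:31318966-31319265 (plus strand, the third start of ZEB1) and chr18:28177081-28177380 (minus strand, CDH2).
VIM: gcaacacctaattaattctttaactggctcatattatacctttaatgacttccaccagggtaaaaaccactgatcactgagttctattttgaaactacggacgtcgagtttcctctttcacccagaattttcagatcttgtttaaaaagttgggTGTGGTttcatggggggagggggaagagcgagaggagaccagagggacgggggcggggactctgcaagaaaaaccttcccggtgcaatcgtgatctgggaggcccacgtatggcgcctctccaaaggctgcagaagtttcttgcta
FN1: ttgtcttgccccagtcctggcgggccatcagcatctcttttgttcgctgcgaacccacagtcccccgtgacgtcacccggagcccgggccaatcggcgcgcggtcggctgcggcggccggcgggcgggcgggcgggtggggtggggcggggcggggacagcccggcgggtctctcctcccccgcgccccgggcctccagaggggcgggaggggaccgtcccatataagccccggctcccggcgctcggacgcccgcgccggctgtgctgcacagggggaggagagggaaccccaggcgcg
ZEB1 at the second start: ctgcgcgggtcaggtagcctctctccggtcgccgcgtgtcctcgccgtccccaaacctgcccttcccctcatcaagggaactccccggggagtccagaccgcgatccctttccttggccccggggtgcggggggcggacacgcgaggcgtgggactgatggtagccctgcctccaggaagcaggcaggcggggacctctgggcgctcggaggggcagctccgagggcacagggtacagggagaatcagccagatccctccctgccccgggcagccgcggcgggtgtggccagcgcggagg
ZEB1 at the third start: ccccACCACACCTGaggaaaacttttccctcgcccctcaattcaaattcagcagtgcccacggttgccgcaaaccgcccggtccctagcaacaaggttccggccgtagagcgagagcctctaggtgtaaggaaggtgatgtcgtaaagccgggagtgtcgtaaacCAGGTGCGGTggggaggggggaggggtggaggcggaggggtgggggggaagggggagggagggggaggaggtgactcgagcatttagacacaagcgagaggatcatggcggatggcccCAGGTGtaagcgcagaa
CDH2: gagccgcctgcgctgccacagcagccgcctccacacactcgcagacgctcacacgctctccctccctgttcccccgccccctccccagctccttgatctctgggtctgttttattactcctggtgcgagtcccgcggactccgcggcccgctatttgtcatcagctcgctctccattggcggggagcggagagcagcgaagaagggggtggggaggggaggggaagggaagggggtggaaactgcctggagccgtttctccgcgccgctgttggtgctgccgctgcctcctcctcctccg

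The listed peaks covered these promoters to different extents. All 300 bases of the FN1 promoter lay under its RUNX2 peak and 288 under its MTA1 peak. At the second start of ZEB1, 300 bases lay under the RUNX2 peak and 184 under the MTA1 peak, and at the third start 175 and 126 bases. The VIM promoter had 64 bases under the RUNX2 peak and 0 under the MTA1 peak, since both peaks lay mostly inside the gene.

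Matches to the motifs lay both inside and outside the peaks. In the VIM promoter the single match, TGTGGT on the gene strand, began 96 bases before the start and outside both peaks. The third start of ZEB1 held 5 matches. ACCACA, the reverse complement of TGTGGT, began 246 bases and CACCTG 242 bases before the start, sharing letters, and both lay inside both peaks. Further down, CAGGTG began 85 bases and TGCGGT 81 bases before the start, also sharing letters, inside the RUNX2 peak but outside the MTA1 peak. The fifth match, CAGGTG, lay after the start and outside both peaks. Of 35116 RefSeq promoters of the same length, 13.1% held TGTGGT, 7.29% held TGCGGT and 20.6% held CACCTG on either strand, so such matches are common. ZEB1 has 7 given starts, and 2 that are not shown also held matches, all outside both peaks. CAGGTG began 57 bases before the first start. At the fifth start ACCACA began 249 bases and ACCGCA, the reverse complement of TGCGGT, 18 bases before it. The promoters of ZEB2 and TWIST2 and both given starts of CDH2 held no match.

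The base content of the bound promoters also varied. The FN1 promoter had a GC content of 76.7% with 38 CpG dinucleotides. The second start of ZEB1 had 72% with 27, and the third 61.7% with 17. The VIM promoter had a GC content of 48% with 10 CpG dinucleotides, below the medians of 58.7% and 14 over all promoters. The first start of CDH2, with no peak nearby, had 67% and 23. Other promoters with no base under a peak varied too. TWIST2 had 66.7% and 29, ZEB2 49% and 14, and the second start of CDH2 40.7% and 4.

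**Figure D1:**
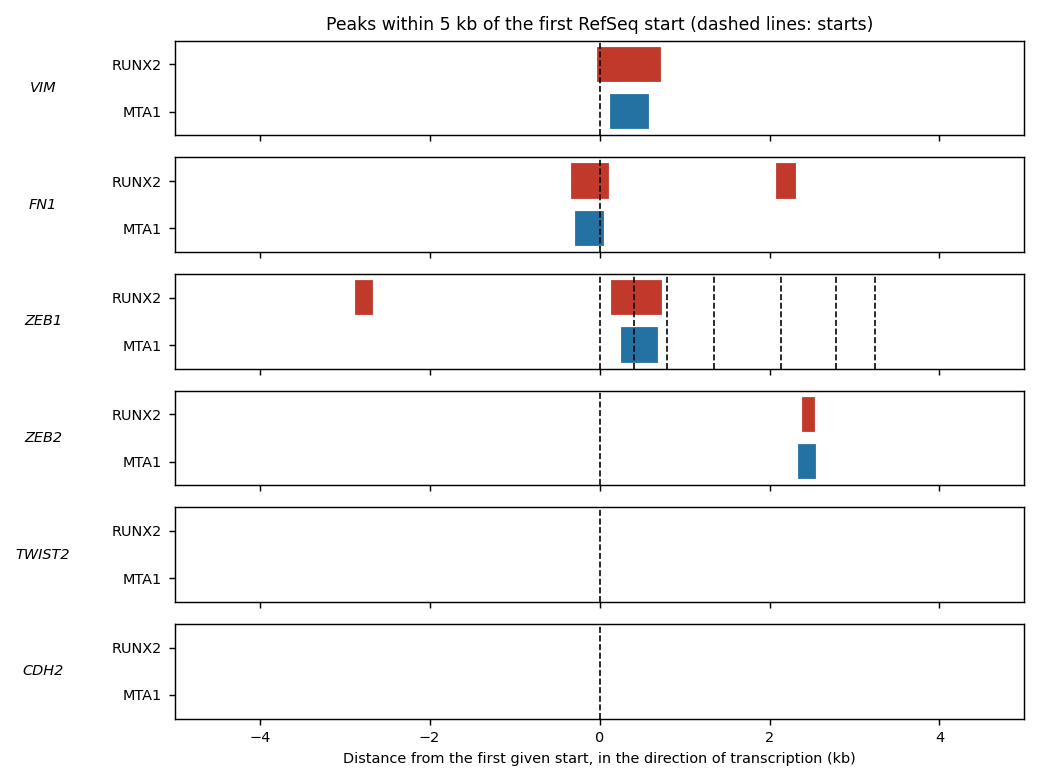
Peaks within 5 kb of the first given start of the 6 genes whose start is in the RefSeq promoter table, with distance from that start along the direction of transcription in kb on the horizontal axis, RUNX2 peaks in red, MTA1 peaks in blue and starts as dashed lines. VIM, FN1 and ZEB1 have overlapping peaks at a start, the ZEB2 pair lies about 2.4 kb into the gene, and TWIST2 and CDH2 have no peak in view.

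Across the 10 windows there were 64 RUNX2 and 42 MTA1 peaks. A RUNX2 peak was present in the windows of 9 genes, against 90.8% of all protein-coding genes, and an MTA1 peak in 9, against 86.6%. An overlapping pair, meaning a RUNX2 and an MTA1 peak that share at least 1 bp, was present in 8, against 80.1%. These counts are near the background, so having a peak somewhere in the window does not set the 10 genes apart.

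Peaks at a start were no more frequent among the 10 genes than elsewhere. Within 1 kb of a start, RUNX2 peaks were found at 3 genes (VIM, FN1 and ZEB1), against 49.8% of protein-coding genes. MTA1 peaks were found at these and at SNAI1, so at 4 genes, against 51.2%, and both lists had a peak at 3, against 44.3%. SNAI1, SNAI2, TWIST1 and CDH1 have no entry in the promoter table, and for them, as for all genes without one, either end of the gene was used. Of the 6 genes with a given start, 3 had peaks of both lists there, where the shares of all genes with a given start were 52.1% for RUNX2, 53.9% for MTA1 and 46.9% for both.

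**Figure D2:**
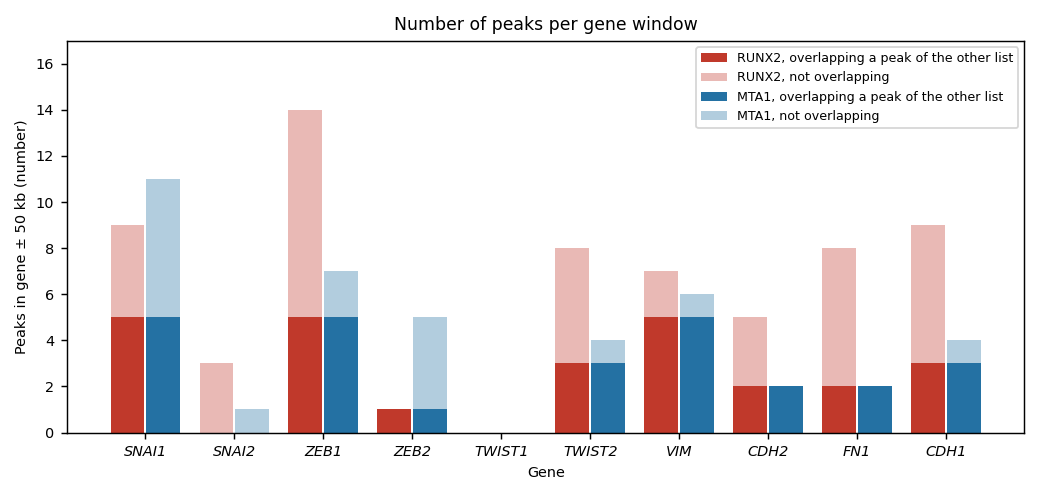
Number of RUNX2 (red) and MTA1 (blue) peaks in the window of each gene, with the dark part of each bar counting peaks that overlap a peak of the other list. ZEB1 had the most RUNX2 peaks (14), SNAI1 the most MTA1 peaks (11), and TWIST1 had none of either.

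Windows differ in length, so peaks were also counted per 100 kb of window. The median over the 10 genes was 4.52 RUNX2 peaks per 100 kb, against 3.55 for all protein-coding genes, and 2.07 MTA1 peaks per 100 kb, against 2.58. With the 10 windows pooled, so that long windows weigh more, the densities were 3.46 RUNX2 and 2.27 MTA1 peaks per 100 kb, so the RUNX2 density was not above 3.55 by this measure. The density was above the median of all genes for 6 of the 10 in the RUNX2 list and for 2 of the 10, SNAI1 and VIM, in the MTA1 list. The genes spread widely: SNAI1 stood at the 89.6th percentile of all genes for RUNX2 and the 97.6th for MTA1, whereas TWIST1 stood at the 4.61st and the 6.72nd.

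**Figure D3:**
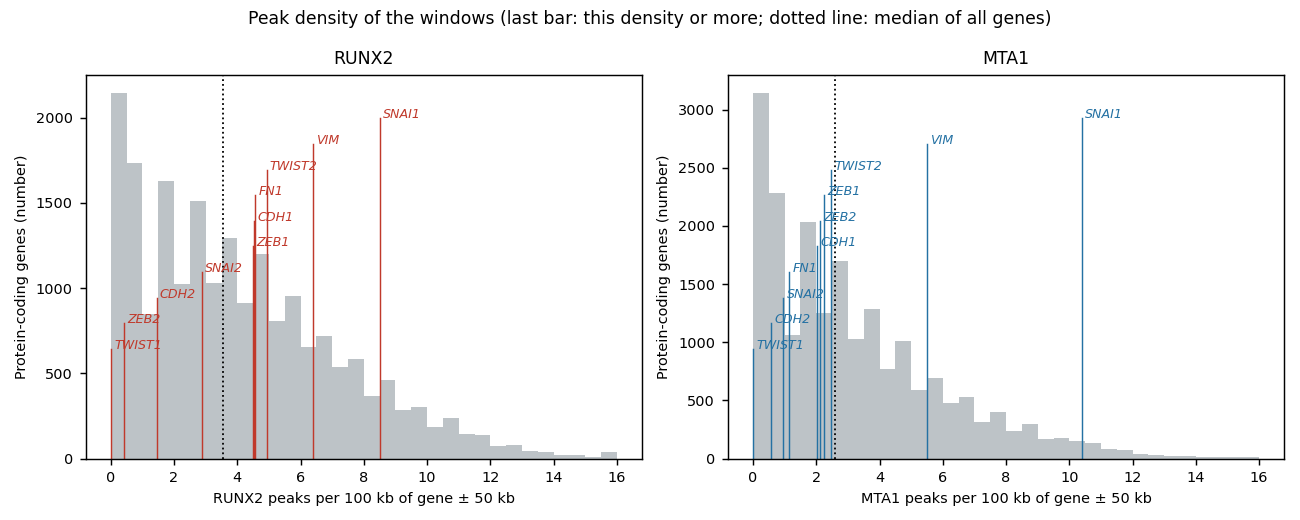
Distribution of RUNX2 (left) and MTA1 (right) peak density, in peaks per 100 kb of window, over 20037 protein-coding genes, with the number of genes on the vertical axis, the 10 transition genes as labelled lines whose height carries no value, and the median of all genes as a dotted line. SNAI1 and VIM lie to the right of the median in both panels, and TWIST1, CDH2, SNAI2 and ZEB2 to the left.

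The SNAI genes encode zinc-finger repressors of CDH1, and the loci of SNAI1 and SNAI2 differed from each other. SNAI1 had 9 RUNX2 and 11 MTA1 peaks, of which 5 of each formed 5 pairs. Most of these peaks lay away from the gene. The highest RUNX2 score, 38.7 (rank 96.7), was at chr20:49968840-49969094, 13.9 kb below the low end of SNAI1, and the MTA1 peak overlapping it had a score of 6.61 (rank 41.5). The highest MTA1 score, 27.6 (rank 94.1), was at chr20:50034027-50034297, 45.1 kb above the high end, overlapping a RUNX2 peak with a score of 16.3 (rank 82.7). Another strong site lay nearby, 41.1 kb above the gene, where the RUNX2 score was 30.4 (rank 94.2) and the score of the overlapping MTA1 peak 10.5 (rank 66.9).

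At the SNAI1 gene itself the signal was weak in both lists. Inside the gene there was 1 RUNX2 peak, at chr20:49987511-49987623, with a score of 4.52 (rank 17.8). The MTA1 peak at its low end, 0.073 kb outside the gene at chr20:49982792-49982907, had a score of 4.70 (rank 14.1) and the narrowest width of its list, 116 bp. RNF114, the nearest protein-coding neighbour on the low side, held 1 of the RUNX2 and 4 of the MTA1 peaks, so part of the SNAI1 count lies in another gene. Among 5694 protein-coding genes with windows of 100 to 110 kb, a comparison chosen after seeing the data, 18.4% had at least as many RUNX2 peaks as SNAI1 and 5.87% at least as many MTA1 peaks.

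SNAI2 had 3 RUNX2 peaks and 1 MTA1 peak, none of them inside the gene and none overlapping. Its highest RUNX2 score was 10.4 (rank 70.1), at chr8:48930386-48930509, 8.96 kb from the gene. The other RUNX2 peaks both had a score of 5.22 (rank 34.3), the score that occurs most often in that list, and the narrowest width, 99 bp. The MTA1 peak, at chr8:48925585-48925793, had a score of 4.70 (rank 14.1) and lay 4.16 kb from the gene.

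ZEB1 and ZEB2, which encode paired zinc-finger and homeodomain repressors, differed as well. ZEB1 had 14 RUNX2 and 7 MTA1 peaks with 5 pairs, all 5 inside the gene. At its second start a RUNX2 peak of 582 bp (chr10:31318559-31319140, score 15.2, rank 81.0) contained an MTA1 peak of 408 bp (chr10:31318684-31319091, score 9.08, rank 59.9). The highest scores of both lists lay at another pair, 35.4 kb from the low end, where the RUNX2 score was 23.1 (rank 89.9, chr10:31353690-31353905) and the MTA1 score 9.49 (rank 62.0, chr10:31353701-31353889). The remaining 3 pairs lay deeper in the gene, with RUNX2 ranks of 40.5 to 65.1 and MTA1 ranks of 20.1 to 56.8. No MTA1 peak in the ZEB1 window ranked above 62.0, while 4 RUNX2 peaks had ranks of 77.2 to 89.9, 1 of them 2.67 kb before the first start and 1 of them 24.8 kb beyond the far end. Because the ZEB1 window spans 311 kb, its density was ordinary, at the 60.5th percentile for RUNX2 and the 45.2nd for MTA1.

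ZEB2 had 1 RUNX2 peak and 5 MTA1 peaks in a window of 236 kb. The RUNX2 peak, at chr2:144517598-144517729 with a score of 5.22 (rank 34.3), lay entirely within the strongest MTA1 peak of the window, at chr2:144517581-144517769 with a score of 9.98 (rank 64.6), about 2.4 kb into the gene. The other MTA1 peaks had ranks of 7.75 to 60.1 and no RUNX2 partner, and 1 of them was nearer to QTMAN. The RUNX2 density of ZEB2 was at the 10.2nd percentile and its MTA1 density at the 43.7th. ZEB2 and SNAI1 were the 2 genes of the 10 with more MTA1 than RUNX2 peaks, an excess seen at 17.8% of protein-coding genes. The reverse held for 7 genes, against 59.2%.

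TWIST1 and TWIST2 encode basic helix-loop-helix factors that also act in mesoderm. TWIST1 had no peak of either list in its window, as was the case for 7.53% of protein-coding genes and for 15.5% of those with windows of 100 to 110 kb, like its own of 105 kb. The nearest RUNX2 peak, at chr7:19177329-19177556, lay 59.7 kb away, just outside the window, with a score of 25.2 (rank 91.3). The nearest MTA1 peak, at chr7:19404979-19405330, lay 287 kb away with a score of 21.2 (rank 89.2). An empty window can hold signal below the threshold of the peak caller.

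TWIST2 had 8 RUNX2 and 4 MTA1 peaks with 3 pairs. Its strongest peaks formed 1 pair 16.2 kb into the gene, where the RUNX2 peak at chr2:238864324-238864549 had a score of 16.7 (rank 83.2) and the MTA1 peak at chr2:238864319-238864527 a score of 18.4 (rank 85.6), sharing 204 bp. The remaining pairs were uneven. At 21.9 kb from the low end, inside the gene, the RUNX2 rank was 13.8 and the MTA1 rank 47.0. At 101 kb, which is about 38 kb beyond the high end of the gene, the order was reversed. The RUNX2 rank there was 73.2 and the MTA1 rank 12.5. No peak lay within 5 kb of the TWIST2 start.

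VIM encodes vimentin, the intermediate filament protein of mesenchymal cells. Of its 7 RUNX2 and 6 MTA1 peaks, 5 of each formed 5 pairs. The pair at the start had the highest RUNX2 score of the window, 22.4 (rank 89.3, chr10:17228227-17228953, 727 bp wide), and an MTA1 score of 15.0 (rank 79.9, chr10:17228379-17228816, 438 bp wide). The RUNX2 peak covered the start and reached 0.712 kb into the gene, and the MTA1 peak lay wholly within it, from 0.138 kb to 0.575 kb past the start.

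The other 4 VIM pairs lay 11.7 to 26.5 kb before the start. The MTA1 peak nearest to the gene among them, at chr10:17216324-17216537, had the highest MTA1 score of the window, 17.9 (rank 84.9), while its RUNX2 partner had a score of 5.18 (rank 29.1) and the narrowest width, 99 bp. TRDMT1 was the nearer gene for 3 of the RUNX2 and 3 of the MTA1 peaks. VIM stood at the 77.8th percentile for RUNX2 density and the 80.6th for MTA1, and of the genes with windows of 100 to 110 kb, 31.5% had at least as many RUNX2 peaks and 30.5% at least as many MTA1 peaks.

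FN1 encodes fibronectin, a glycoprotein of the extracellular matrix. It had 8 RUNX2 and 2 MTA1 peaks, and both MTA1 peaks overlapped a RUNX2 peak. The start carried a RUNX2 peak with a score of 15.9 (rank 82.2, chr2:215435973-215436396) and an MTA1 peak with a score of 7.12 (rank 45.8, chr2:215436031-215436345), which lay wholly within the RUNX2 peak. The other MTA1 peak had the higher score, 12.7 (rank 74.2, chr2:215311872-215312128), but lay 48.7 kb beyond the gene, inside ATIC. Of the 5 further RUNX2 peaks inside FN1, none overlapped an MTA1 peak, and their ranks ran from 1.05 to 75.4.

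CDH2 encodes N-cadherin, which replaces E-cadherin in cells that have passed through the transition. In a window of 344 kb it had 5 RUNX2 and 2 MTA1 peaks, and both MTA1 peaks overlapped a RUNX2 peak. The strong pair lay 61.6 kb from the nearest start, inside the gene, with a RUNX2 score of 26.9 (rank 92.5, chr18:28115179-28115466) and an MTA1 score of 20.5 (rank 88.3, chr18:28115265-28115531). The second pair lay 10.5 kb beyond the low end of the gene with ranks of 50.4 and 64.6. The remaining 3 RUNX2 peaks all had the narrowest width, 99 bp, and ranks of 2.64 to 34.3. CDH2 had low densities, at the 23.1st percentile for RUNX2 and the 16.7th for MTA1.

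CDH1 encodes E-cadherin, the target of the SNAI, ZEB and TWIST repressors. Its window held 9 RUNX2 and 4 MTA1 peaks with 3 pairs, and no peak of either list lay within 1 kb of either end. The strongest pair, with a RUNX2 score of 38.9 (rank 96.8, chr16:68707428-68708112) and an MTA1 score of 14.3 (rank 78.3, chr16:68707484-68708036), lay 29.2 kb below the low end of CDH1, inside CDH3, which encodes P-cadherin. That RUNX2 peak was the highest ranked of all 64.

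Inside CDH1 there were 5 RUNX2 and 2 MTA1 peaks. The stronger of the pairs there had a RUNX2 score of 19.6 (rank 86.7, chr16:68790177-68790516) and an MTA1 score of 6.07 (rank 36.6, chr16:68790218-68790464), 53.1 kb from the low end. A further RUNX2 peak close by, with a score of 15.4 (rank 81.3, chr16:68793109-68793276), had no MTA1 partner. The other pair, 7.7 kb from the low end, was weak in both lists, with ranks of 16.0 and 22.8. TANGO6 held 2 RUNX2 and 1 MTA1 of the peaks of the window. The CDH1 densities were at the 61.0th percentile for RUNX2 and the 42.7th for MTA1.

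**Figure D4:**
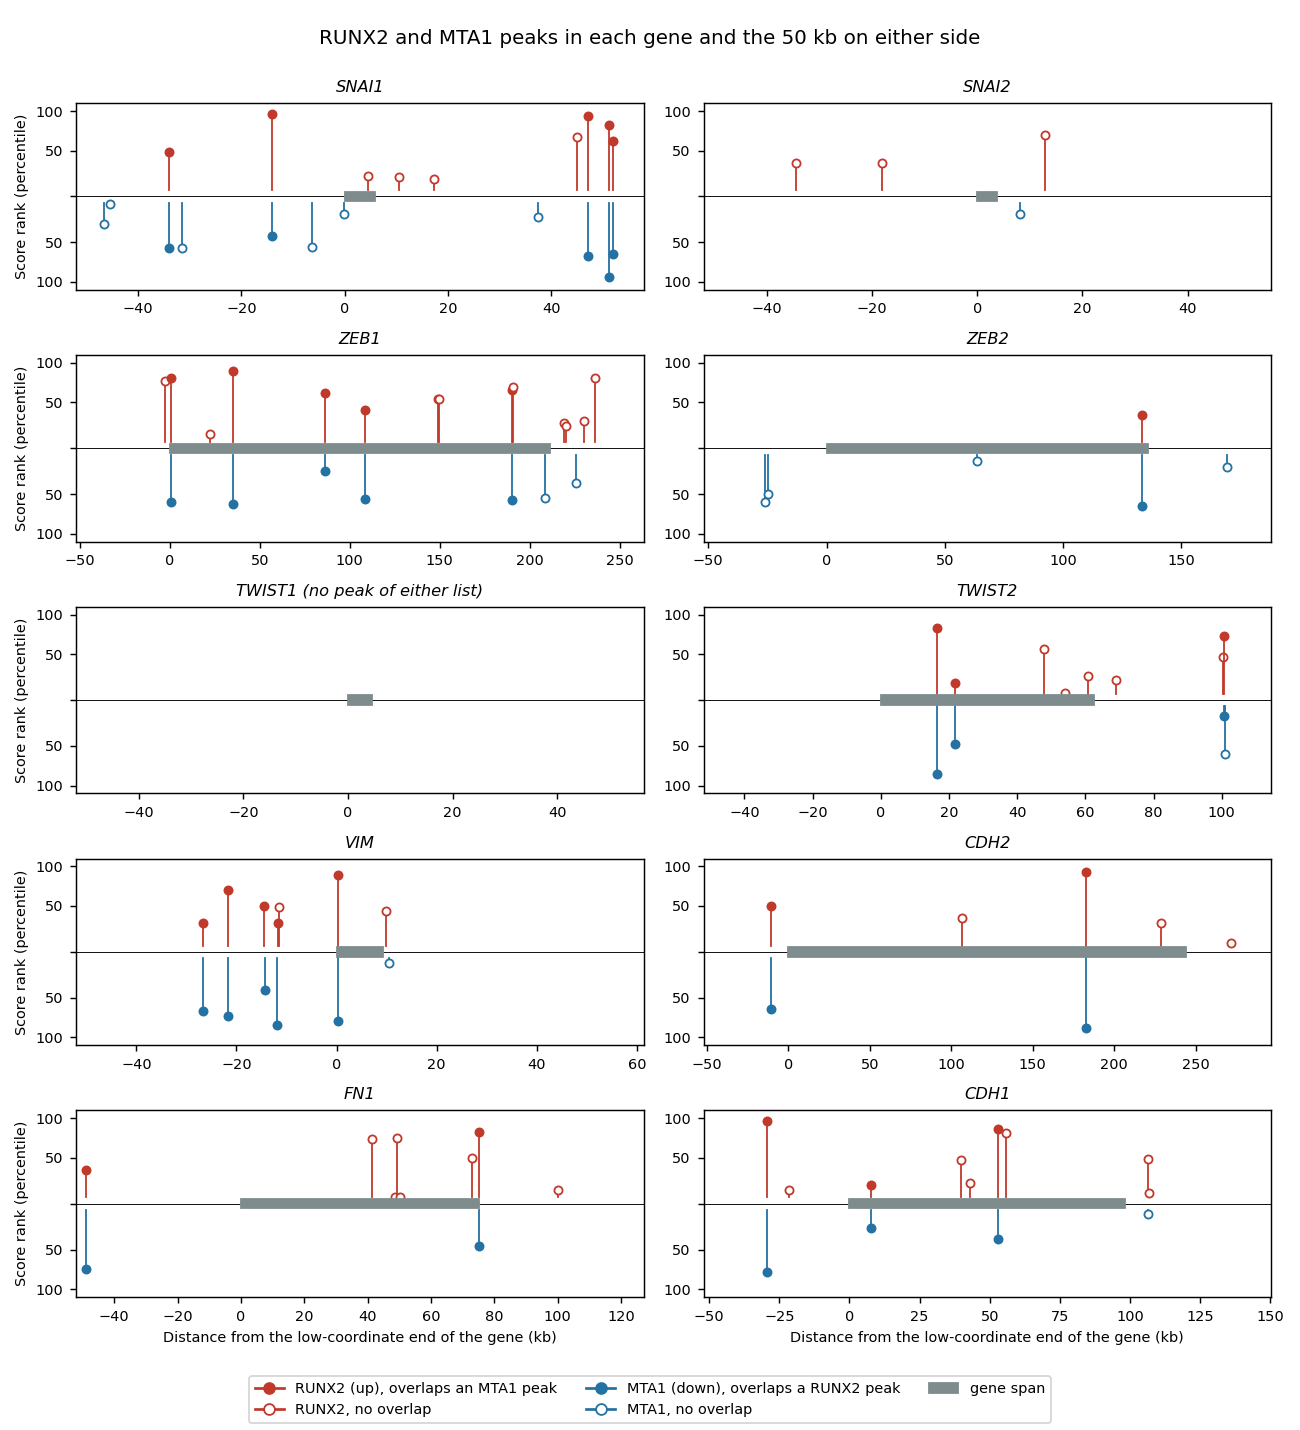
Position and score rank of every peak in the 10 windows, with distance from the low-coordinate end of the gene in kb on the horizontal axis, the rank as a percentile upward for RUNX2 (red) and downward for MTA1 (blue), overlapping peaks filled and the gene as a grey bar. The highest ranked RUNX2 peaks of SNAI1 (96.7) and CDH1 (96.8) lie outside the genes, while those of VIM (89.3) and FN1 (82.2) lie at a start.

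The scores of the peaks were spread over both lists. Of the 64 RUNX2 peaks 4 ranked above 90, at SNAI1, CDH2 and CDH1, and of the 42 MTA1 peaks 1 did, at SNAI1. A RUNX2 peak ranked above 90 lay in the window of 38.8% of protein-coding genes, against 3 of the 10, and an MTA1 peak ranked above 90 in that of 38.9%, against 1 of the 10. The median rank was 48.6 for the RUNX2 and 55.9 for the MTA1 peaks. The narrowest width, 99 bp for RUNX2 and 116 bp for MTA1, was shared by 17 of the 64 and 10 of the 42 peaks (26.6% and 23.8%), against 31.7% and 26.0% of the whole lists.

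Overlap between the lists was close to that of the whole lists. Of the RUNX2 peaks 26 of 64 (40.6%, 95% exact interval 28.5 to 53.6) overlapped an MTA1 peak, against 45.4% of all RUNX2 peaks. Of the MTA1 peaks 26 of 42 (61.9%, 45.6 to 76.4) overlapped a RUNX2 peak, against 65.5% of all MTA1 peaks. The Clopper-Pearson intervals cover counting error over peaks only and include the shares of the whole lists.

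The overlap differed by position for MTA1 in these counts. Inside the genes 13 of 15 MTA1 peaks (86.7%, 59.5 to 98.3) overlapped a RUNX2 peak, and in the flanks 13 of 27 (48.1%, 28.7 to 68.1). The intervals overlap, and the difference was not tested. SNAI1 alone held 11 of the flank peaks, 5 of them overlapping, and ZEB1 held 6 of those inside, 5 of them overlapping. The same split over all genes was not counted. For RUNX2 the shares were similar, with 13 of 31 inside (41.9%) and 13 of 33 in the flanks (39.4%). By role, 9 of 10 MTA1 peaks of the mesenchymal genes, 14 of 28 of the transcription factor genes and 3 of 4 of CDH1 overlapped a RUNX2 peak, against 65.5% of the whole list. In the other direction, 9 of 20 RUNX2 peaks of the mesenchymal genes, 14 of 35 of the transcription factor genes and 3 of 9 of CDH1 overlapped an MTA1 peak, against 45.4%. The differences between roles were not tested, and single windows weigh heavily in them. VIM held 5 of the 9 overlapping MTA1 peaks of the mesenchymal genes, 3 of them nearer to TRDMT1, and 1 of FN1 lay inside ATIC. SNAI1 held 11 of the 28 MTA1 peaks of the transcription factor genes, 4 of them inside RNF114.

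Overlapping peaks had higher scores than the others, as in the lists as a whole. The median rank of the overlapping RUNX2 peaks was 67.3 against 34.3 for the rest, and that of the MTA1 peaks 63.3 against 22.5. Over the whole lists the medians were 72.4 and 34.3 for RUNX2 and 65.2 and 25.5 for MTA1. In 13 of the 26 pairs the RUNX2 rank was the higher one, against 57.7% of all 28440 pairs. The shared stretch took up a median of 77.5% of the RUNX2 peak and 87.8% of the MTA1 peak, and 18 pairs shared at least 50% of both.

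**Figure D5:**
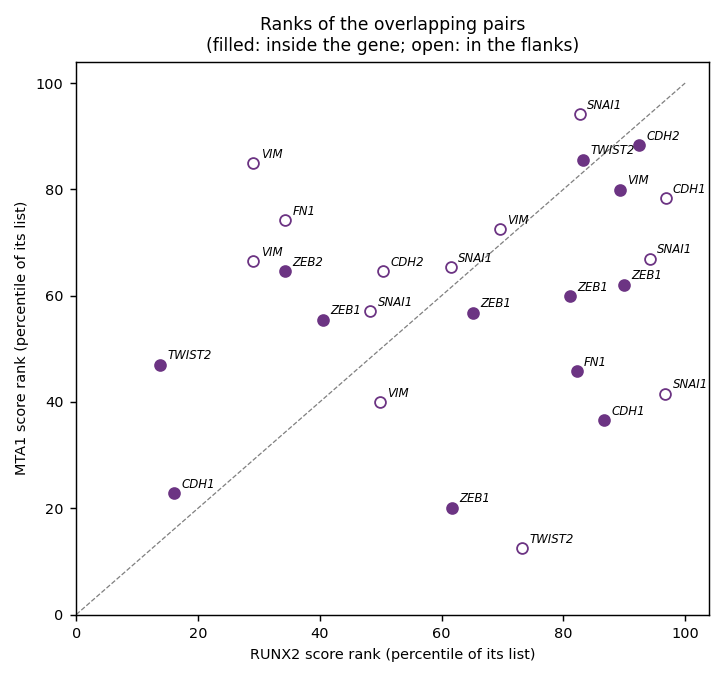
Score rank of the RUNX2 peak (horizontal axis, percentile) and of the MTA1 peak (vertical axis, percentile) for each of the 26 overlapping pairs, filled where the pair lies inside the gene and open where it lies in the flanks, with the line of equal rank dashed. Of the 26 pairs 13 lie below the line, and the pairs of CDH2, TWIST2, VIM and SNAI1 reach high ranks in both lists.

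Wider lists of genes around the transition were also chosen by name. Of 20 further epithelial genes 19 had an overlapping pair in the window, of 16 mesenchymal genes 14, and of 10 other transcription factors of the transition 7, against 80.1% of protein-coding genes. These genes are not all independent. KRT8 and KRT18 share peaks, and the strong pair inside CDH3, an epithelial gene of the wider list, is also counted for CDH1. At the start, peaks of both lists were found at 6 of the 20 epithelial genes, 8 of the 16 mesenchymal genes and 2 of the 10 factors, against 44.3%. The median RUNX2 density was 5.06 peaks per 100 kb for the epithelial, 5.56 for the mesenchymal and 2.40 for the factor genes, against 3.55 for all protein-coding genes. The median MTA1 density was 4.03, 3.75 and 1.85 peaks per 100 kb, against 2.58, so the epithelial and mesenchymal lists lay above the median of all genes and the 10 genes, at 2.07, below it. These densities count the whole window, and at several genes of both lists all MTA1 peaks lay outside the gene. The strongest start peaks of both lists were at TCF3, which encodes an E protein that binds E-boxes, with a RUNX2 score of 50.1 (rank 98.6) and an MTA1 score of 34.4 (rank 96.8). AXL, which encodes a receptor tyrosine kinase of mesenchymal cells, had scores of 42.7 (rank 97.6) and 28.6 (rank 94.7). Of the epithelial keratin genes, KRT18 had start scores of 29.96 (rank 93.9) for RUNX2 and 10.5 (rank 66.8) for MTA1, and KRT8 had 20.3 (rank 87.4) and 23.3 (rank 91.1).

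The microRNA genes of the miR-200 family and MIR205, whose products act on the ZEB1 and ZEB2 transcripts, lie at 3 loci. All 6 genes had an overlapping pair in the window, against 65.5% of microRNA genes, and none had a peak within 1 kb of an end. Genes of the same locus share nearly the same window and the same pairs, so the 6 genes count as only 3 loci. At MIR200C and MIR141, 5 of 7 RUNX2 and 5 of 8 MTA1 peaks overlapped, and the highest ranks were 77.2 and 91.7. The nearest RUNX2 peak there lay 1.43 kb and the nearest MTA1 peak 1.47 kb from the genes. At MIR200A, MIR200B and MIR429 there were 3 RUNX2 and 5 MTA1 peaks with the nearest at 9.41 kb and 9.43 kb, and at MIR205 there were 6 and 3 with the nearest at 22 kb for both lists.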

How the data were processed

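CUT&Tag libraries of MDA-MB-231 cells were represented by the peak lists that the authors deposited, 1 per antibody, each with the chromosome, start, end, name and score of every peak. What the score measures was left unstated by the authors, so the deposited score was used to rank peaks. The submitters' processing notes name CASAVA 1.4, Bowtie 0.12.8, MACS, MACS2 and hg19. The labels name another antibody supplier than the methods of the study and describe end polishing, adaptor ligation and size selection, which is not usual for CUT&Tag, so the product and the library preparation are uncertain. Read depth is unknown and no control library was analysed here.

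Gene spans and starts came from RefSeq GRCh38.p14 (20037 protein-coding genes, 15843 with a given start). Peaks on mitochondrial DNA (17 RUNX2, 15 MTA1) were left out. A peak was in a window when it shared at least 1 bp with it, ranks counted ties at their mid rank, and shares carry exact 95% intervals. The counting steps were tested on simulated data. Tables were handled with pandas 2.3.3 and numpy 2.4.6 in Python 3.11.15, intervals came from scipy 1.17.1, and plots were drawn with matplotlib 3.10.9.

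The 10 genes, the wider lists and all comparisons were chosen with earlier results of these data known. The genes named are the 10, with the highest-scoring peak of each list in each window and the other gene where that peak is nearer to it, and, of the wider lists, the 3 with the highest-scoring RUNX2 peak and the 3 with the highest-scoring MTA1 peak within 1 kb of the start. Other peaks and neighbouring genes, and the windows of 100 to 110 kb, were chosen after their values were seen.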

Additional observations from a re-analysis of the deposited data

How the results depend on the processing

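No paired analysis was possible because each antibody has 1 library. The overlap shares stayed within their intervals except when each peak had to share 50% or more of its length, which gave 28.1% for RUNX2 and 42.9% for MTA1. With windows of 10 kb on either side, 40 RUNX2 and 20 MTA1 peaks were left, and RUNX2, MTA1 and paired peaks were present at 9, 9 and 7 genes. Without the peaks that scored below the median, 28 and 23 peaks were left, and an MTA1 peak lay at the start of 2 genes. When each list was cut to its top 10000 peaks by score, 7 RUNX2 and 6 MTA1 peaks were left, in the windows of 5 and 5 genes with a pair at 3, and RUNX2, MTA1 and both had a start peak at 1, 1 and 1 gene. Within 3 kb of a start, RUNX2 peaks were found at 6 genes and both lists at 5. The 300-base promoter windows exist only for the 6 genes with a given start, so SNAI1 could not be counted there. Within them, MTA1 peaks were found at 2 genes. These settings change the number of peaks, the reach of the windows, the genes that can count or the rule for overlap. Apart from this loss of SNAI1, what moved the values was not tested. The shares of all protein-coding genes under these settings were not counted, so the counts cannot show whether the 10 genes differ from others. Windows of 100 kb, assignment to the nearest gene, dropping peaks of the narrowest width and merging peaks within 500 bp changed none of the totals over the 10 genes by more than 1.5 times. Of the 20 counts of peaks per gene and list, 10 moved by more than 1.5 times with windows of 10 kb, 7 with windows of 100 kb and 15 without the peaks below the median score. The highest rank of a gene moved in 6 cases with windows of 10 kb and in 4 with windows of 100 kb. The RUNX2 rank of SNAI1 was then 17.8 within 10 kb, and the MTA1 rank of ZEB1 97.5 within 100 kb. TWIST1, with no peak within 50 kb and so no rank to compare, is left out of these counts of ranks. It had 2 RUNX2 peaks within 100 kb, the nearest with a rank of 91.3. With 1 library per antibody, the spread between libraries is unknown, and a missing peak can be a weak signal.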
